A study of Sus scrofa with 8 samples.

Results

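The T and NK cell genes comprised CD3D, CD3E, CD3G, CD2, CD5, CD8A, NKG7, GZMB, GZMA and PRF1. They were taken by name from the 22516 genes measured in pig olfactory epithelium (OE), where the olfactory neurons sit. Earlier results of these data were known when the names were chosen, so the choice was not blind to them. Of the 10 names, 9 matched a gene identifier and GZMA matched 2, so that 10 rows were described. CD3G matched no identifier and was not analysed here. All 10 rows passed the filter of at least 1 rounded count over the libraries. The sows, 8 months old and in estrus, were offspring of a Landrace sire and a Rongchang dam. The control group (2 sows) received no solution, and the androstenone treatment group (2 sows) received Boarmate, a spray that mainly contains the boar pheromone androstenone, in the nasal cavity and was sacrificed 30 min later. As no sham spray was given, the act of spraying and androstenone cannot be told apart. Each sow gave a library from its left OE and another from its right OE, hence 4 libraries per group. The sources used here do not say which libraries shared a sow. The libraries were therefore treated as replicates, and the p-values measure the spread between libraries, not between animals.

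T cells recognize antigen through a receptor whose CD3 chains carry the signal into the cell, helped by the co-receptors CD4 and CD8. CD8 T cells and NK cells kill target cells by releasing granules that hold perforin, which opens the membrane, and granzymes, which are proteases that act inside the target. In pigs NK cells also carry CD2 and the CD8 alpha chain, so that these 2 genes do not mark T cells alone, and NKG7, PRF1 and the granzymes are shared by both cell types. In nasal mucosa such cells sit both within the epithelium and in the tissue below it. In bulk tissue, fewer cells of a type and less RNA per cell cannot be told apart.

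On Sscrofa11.1 (RefSeq annotation), CD3E, CD3D and CD3G lie next to each other on chromosome 9, at 45619730 to 45633972, 45640475 to 45644153 and 45645243 to 45656779. CD2, an adhesion receptor, lies on chromosome 4 from 103963802 to 103976971. CD5, a scavenger-family receptor that dampens T cell receptor signals, lies on chromosome 2 from 10648973 to 10673479, and CD8A on chromosome 3 from 57999228 to 58029768. NKG7, a granule membrane protein, lies on chromosome 6 from 58496089 to 58497827, PRF1, which encodes perforin, on chromosome 14 from 73515306 to 73520256, and GZMB on chromosome 7 from 74705499 to 74708781. RefSeq holds 2 genes named GZMA on chromosome 16, at 34262495 to 34272084 and 34282160 to 34290422. The files likewise hold 2 GZMA rows, ENSSSCG00000016902 and ENSSSCG00000016903, and no table used here pairs either identifier with either position. Reads shared by the 2 copies may have been split between the rows, so the level of each single row is uncertain.

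The libraries differed in total deposited counts and in tissue make-up. Control 1 held 4178330 counts against 81580146 to 100685566 in the other 7 libraries. In the study's summary of its sequencing, however, the clean reads of control 1 lay within the range of the other libraries. The sources used here do not say why its deposited total is low. A member had 17 to 244 rounded counts in control 1 and at least 220 elsewhere. In control 4, the 12 genes of osteoblasts and cartilage summed to 16461 TPM, against 93.6 to 519 TPM in the other 7 libraries, and its 10 leading genes made up 29.4% of the counts. The 12 motile cilium genes, none of them at 0 in any library, summed to 286 to 1694 TPM in the control group and 374 to 1528 TPM in the androstenone treatment group, and were highest in control 3, androstenone 1 and androstenone 2. Genes of olfactory neurons gave a mixed picture. RTP2 was at 0 in every library, RTP1 reached at most 0.0380 TPM, GNG13 0.493 TPM, CNGA4 0.699 TPM and EBF2 0.387 TPM, while CNGA2 was at 0.279 to 5.01 TPM, GNAL at 0.497 to 8.87 TPM, ADCY3 at 6.25 to 15.03 TPM, ANO2 at 3.18 to 50.4 TPM and STOML3 at 34.9 to 190.2 TPM. OMP and CNGB1 matched no identifier. The sum of this list, led by STOML3, was highest in control 3 (215 TPM), androstenone 2 (186 TPM) and androstenone 1 (181 TPM). These were also the libraries highest in cilium genes, and the part of neurons in the sum was not tested. Within the androstenone treatment group the libraries fell into pairs: over all genes, the chi-square of their counts was 112 per gene between libraries 1 and 2 and 117 between 3 and 4, against 738 to 1119 across these pairs. Likeness also crossed the groups. Control 3 gave 378 and 363 against androstenone 1 and 2, but 1406 and 3024 against controls 2 and 4. Against control 1, with its low total of counts, it gave 110. Whether each androstenone pair came from 1 sow is not stated, and the tests of 4 against 4 libraries treat all libraries as independent.

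All members were detected in every library. On the TPM scale, which is corrected for transcript length and can be compared between genes, CD3E had the highest mean level (34.5 ± 14.6 TPM, SD over 8 libraries) and PRF1 the lowest (1.70 ± 0.256 TPM). CD3E exceeded the next gene, CD2 (25.4 ± 11.03 TPM), in 8 of 8 libraries. CD2 and NKG7 (24.2 ± 6.79 TPM) did not separate, as CD2 was higher in 4 of 8 libraries. Below them came GZMA ENSSSCG00000016903 at 21.2 ± 17.6 TPM, CD8A at 20.3 ± 8.00 TPM, GZMB at 18.1 ± 10.7 TPM and GZMA ENSSSCG00000016902 at 15.6 ± 11.3 TPM. Each of these neighbors in the order was above the next in 3 to 6 of 8 libraries. CD5 (12.7 ± 6.94 TPM) was above CD3D (11.6 ± 5.41 TPM) in 3 of 8 libraries. CD3D exceeded PRF1 in 8 of 8.

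The receptor genes CD3D, CD3E, CD2 and CD5 shared a pattern over the libraries that did not follow the groups. Single levels below are CPM, the counts relative to the library size after TMM scaling, which serve to compare libraries within a gene. CD3E, the epsilon chain of the receptor complex, was at 50.1, 37.0, 16.4 and 14.1 CPM in control 1 to 4, and at 46.8, 28.4, 38.1 and 47.5 CPM in androstenone 1 to 4. Controls 3 and 4 were the lowest libraries and control 1 the highest, so that the groups overlapped. Androstenone treatment minus control came to 0.46 in log2 (standard error, SE, 0.41, adjusted p = 0.664, edgeR quasi-likelihood test).

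CD3D, the delta chain, was at 39.0, 29.8, 14.6 and 9.68 CPM in the control libraries and at 28.4, 20.6, 17.7 and 24.4 CPM in the androstenone libraries. All androstenone libraries lay within the range of the controls, and the log2 fold change was -0.023 (standard error 0.42). CD2 was at 31.8, 32.0, 14.2 and 10.6 CPM in the control libraries and at 28.5, 17.3, 28.8 and 40.6 CPM in the androstenone libraries. CD5 was at 29.0, 32.7, 8.89 and 7.50 CPM against 22.01, 11.9, 18.4 and 29.4 CPM. For both genes controls 3 and 4 were again the lowest libraries, and androstenone 2 was the lowest of its group. Their log2 fold changes were 0.39 (standard error 0.41) and 0.073 (standard error 0.52), with adjusted p of 0.709 and 0.966 in the same test. Within the control group alone, CD5 spanned 7.50 to 32.7 CPM. Control 4 was the library with the bone and cartilage genes, and control 3 the one with the highest cilium genes; the part of either tissue in these low values was not tested.

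**Figure D1:**
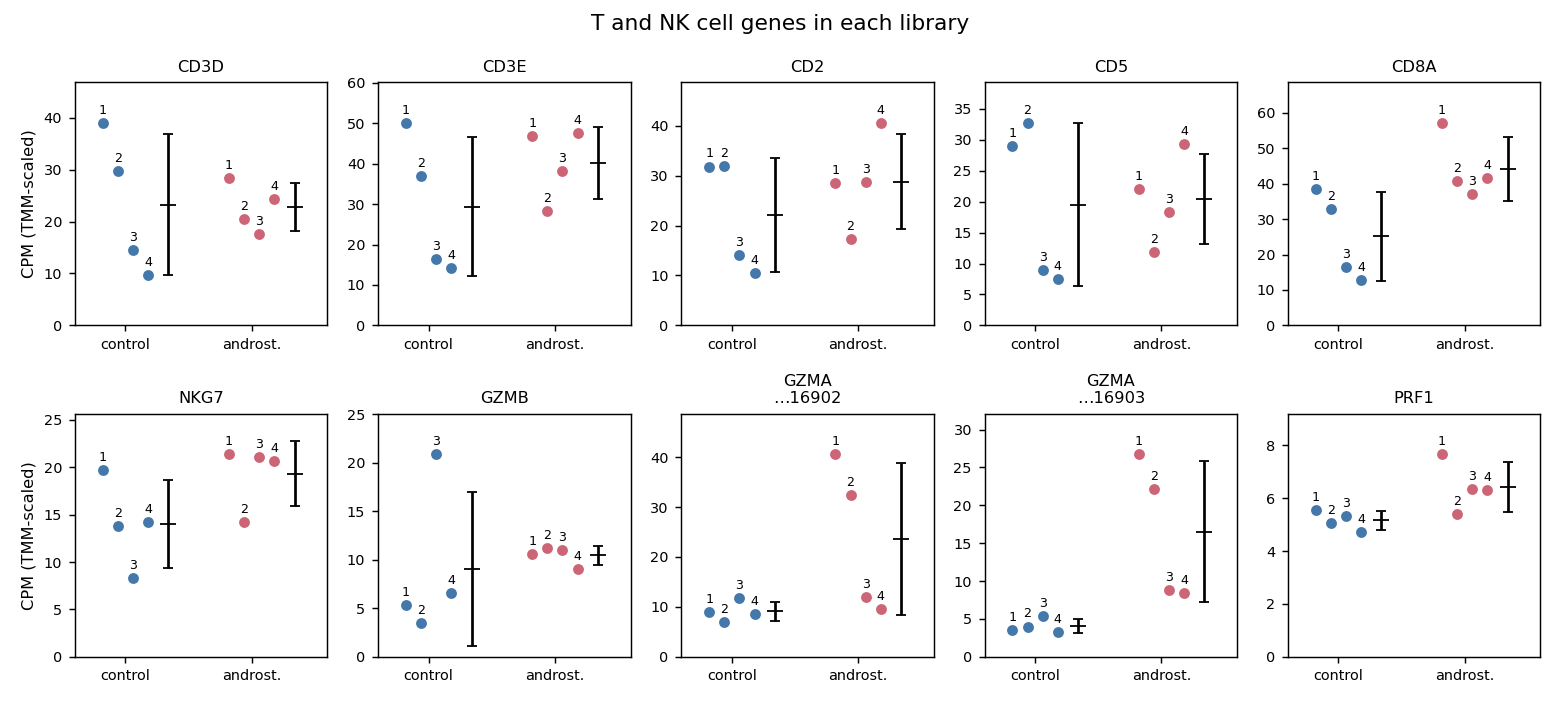
Level of each T and NK cell gene (TMM-scaled CPM, vertical axis from 0) in the 4 control (blue) and 4 androstenone treatment (red) libraries, numbered by replicate, with the mean and SD beside them. Controls 3 and 4 sit lowest for CD3D, CD3E, CD2, CD5 and CD8A, while both GZMA rows are highest in androstenone 1 and 2.

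CD8A, the alpha chain of the co-receptor of cytotoxic T cells, was at 38.4, 32.9, 16.4 and 12.7 CPM in the control libraries and at 57.2, 40.6, 37.1 and 41.6 CPM in the androstenone libraries. Only control 1 overlapped the androstenone treatment group, through androstenone 3. Control 1 rested on 187 counts, with a 95% exact Poisson interval of 33.1 to 44.3 CPM (counting error only). The difference of 0.82 in log2 (SE 0.36, adjusted p = 0.441, edgeR) fell short of the cutoff of 1 with an unadjusted p below 0.05. Without control 1 it was 1.10 (adjusted p = 0.4995), which passed that cutoff. It also passed with limma voom, at 1.08 (adjusted p = 0.452).

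NKG7 was at 19.7, 13.8, 8.30 and 14.2 CPM in the control libraries and at 21.4, 14.2, 21.0 and 20.6 CPM in the androstenone libraries. The groups overlapped, since androstenone 2 lay among the controls and apart from the other 3 of its group. On the log2 scale the groups differed by 0.47 (SE 0.28, adjusted p = 0.533). PRF1, the gene of perforin, varied least of the members, 1.62-fold between its lowest and highest library. It was at 5.55, 5.06, 5.34 and 4.72 CPM in the control libraries and at 7.66, 5.39, 6.33 and 6.32 CPM in the androstenone libraries, and only control 1 was above an androstenone library. This was a difference of 0.32 in log2 (SE 0.20, adjusted p = 0.558).

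The 2 GZMA rows were the members that differed most between the groups. Granzyme A is a tryptase of cytotoxic granules. GZMA ENSSSCG00000016903 was at 3.49, 4.00, 5.34 and 3.31 CPM in control 1 to 4 and at 26.7, 22.2, 8.88 and 8.38 CPM in androstenone 1 to 4. Every androstenone library was above every control library, and androstenone 1 and 2 were well above androstenone 3 and 4. The value of control 1 rested on 17 counts (95% exact Poisson interval 2.03 to 5.59 CPM), still below the lowest androstenone library. Group means were 4.04 ± 0.919 and 16.5 ± 9.33 CPM (SD, n = 4 libraries each). This was a 4.07-fold difference, or 2.03 on the log2 scale (standard error 0.43), with adjusted p = 0.378 in edgeR's quasi-likelihood test. An exact permutation test over the libraries gave p = 0.0286 (two-sided), the smallest that 4 against 4 allow. Separation of the groups fixes this value, so it only repeats the lack of overlap, found in 6.53% of all genes. The other rows gave p = 0.0571 to 0.8 in this permutation test. Over the alternatives the adjusted p of GZMA ENSSSCG00000016903 ranged from 0.00216 (DESeq2) to 0.893 (replicate block), and it was below 0.05 in 3 of 19.

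GZMA ENSSSCG00000016902 was at 9.04, 7.02, 11.7 and 8.57 CPM in the control libraries and at 40.6, 32.5, 12.1 and 9.58 CPM in the androstenone libraries. Androstenone 4 lay below control 3, so that the groups overlapped. This was a 2.61-fold difference, or 1.38 on the log2 scale (standard error 0.47), with adjusted p = 0.416 (edgeR). It no longer passed the cutoff without androstenone 1 (log2 fold change 0.99, adjusted p = 0.726) or without androstenone 2 (1.17, adjusted p = 0.728). Nor did it pass with limma voom, limma on log2(TPM + 0.1) or log2(TPM + 1), or the replicate block. Summed over the 2 rows, which does not depend on how shared reads were split, GZMA was at 12.5, 11.02, 17.1 and 11.9 CPM against 67.3, 54.7, 21.0 and 17.96 CPM. For this sum, taken after the values were seen and given without a test, every androstenone library was above every control. The high and low androstenone libraries were the 2 pairs of like libraries named above. Androstenone 1 and 2 also held high cilium gene sums, of 1274 and 1528 TPM. Control 3, with the highest cilium sum of all (1694 TPM), had a GZMA sum of 17.1 CPM, the highest of the controls but below all androstenone libraries. In both groups the libraries richest in cilium genes were thus those highest in GZMA, and the part of this in the result was not tested.

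GZMB, a granzyme that cleaves after aspartate and activates caspases, did not follow GZMA. It was at 5.34, 3.48, 20.9 and 6.53 CPM in the control libraries and at 10.6, 11.2, 11.0 and 9.02 CPM in the androstenone libraries. Control 3 was the highest of all 8, the other 3 controls the lowest, and the androstenone libraries lay close together between them. The fitted log2 difference came to 0.20 (SE 0.52, adjusted p = 0.894, edgeR), and without control 3 it was 1.03 (adjusted p = 0.187), which passed the unadjusted cutoff.

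**Figure D2:**
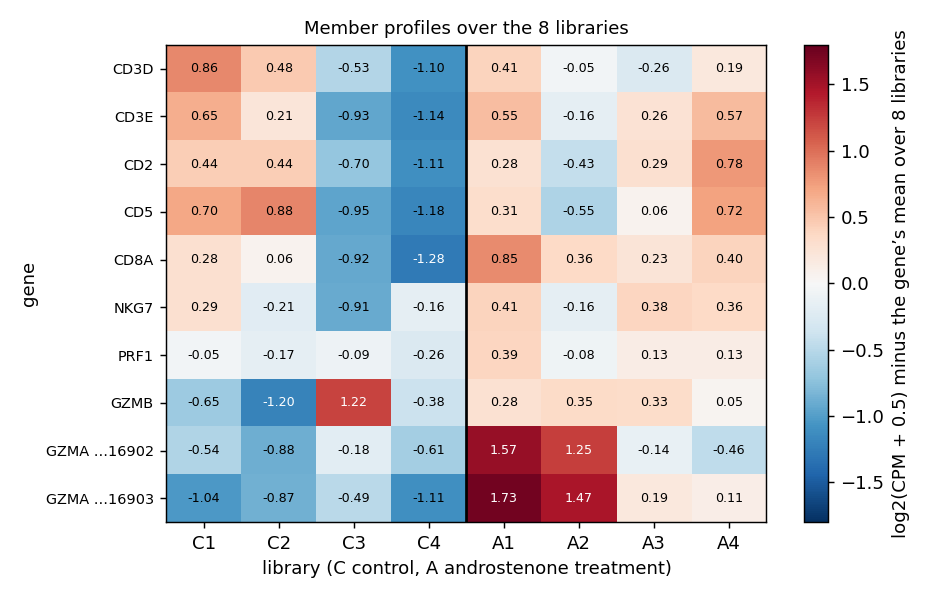
Profile of each member over the 8 libraries as log2(CPM + 0.5) minus the gene's own mean, with red above and blue below that mean. CD3D, CD3E, CD2, CD5 and CD8A share their low values in C3 and C4, GZMB stands alone with a high C3 (1.22), and both GZMA rows peak in A1 and A2 (1.25 to 1.73).

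At an unadjusted p below 0.05 and a log2 fold change of 1 or more in size, the cutoff the study used, 2 of the 10 rows passed and both were higher in the androstenone treatment group. Over all 21318 genes tested, 6.42% passed in either direction, 2.04% upward and 4.38% downward. The 2 rows are copies of GZMA that can share reads, and are thus not 2 independent genes. Benjamini-Hochberg adjustment over all genes left 0 members and 0% of all genes with edgeR's quasi-likelihood test, where 2415 genes, or 11.3%, were at an unadjusted p below 0.05. DESeq2, the likelihood ratio test and the exact test each left 1 member, GZMA ENSSSCG00000016903, among 670, 200 and 154 genes, and limma voom left 0. The groups did not overlap in 1 of the 10 rows, against 6.53% of all genes (3.89% upward and 2.64% downward). The fold change was upward in 9 of 10 rows, against 48.2% of all genes, with a median log2 fold change of 0.42 against -0.021. Without control 4 the median of the members was 0.25, and without control 1 it was 0.64.

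The other genes of T and NK cells were followed in 7 lists of 114 names, of which 104 matched and were tested. At the same cutoff 5 passed, all higher in the androstenone treatment group, which is 4.81% of the 104. Of all genes, 6.42% passed in either direction and 2.04% upward. Lower calls appeared under some alternatives, for KLF2 in 9 of 19 and for GZMH and TOX in 1 of 19 each. The median log2 fold change of the 104 genes was 0.29. Of the T cell receptor and co-receptor list 0 of 13 passed, and of T cell receptor signalling 0 of 17, with medians of 0.28 and 0.37. Those with the highest TPM of the lists were CD247, the zeta chain of the receptor complex, with a log2 fold change of 0.18 (adjusted p = 0.791), and SIT1, an adaptor that dampens receptor signals, with 0.47 (adjusted p = 0.686). CD4 was at 34.5, 29.6, 6.34 and 13.9 CPM in the control libraries and 18.1, 7.74, 32.3 and 43.5 CPM in the androstenone libraries, with overlapping groups.

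Of the NK receptors and adaptors 0 of 11 passed, although 11 of 11 had a log2 fold change above 0, with a median of 0.61. NCR1, the receptor NKp46 that marks NK cells, was at 1.85, 2.46, 0.9495 and 0.737 CPM in the control libraries and at 1.69, 1.02, 4.81 and 5.61 CPM in the androstenone libraries. Androstenone 3 and 4 were highest and androstenone 1 and 2 lay among the controls, the opposite order to that of GZMA (log2 fold change 1.16, adjusted p = 0.508). TYROBP, an adaptor shared with myeloid cells, had the highest TPM of the list and a log2 fold change of 0.0086 (adjusted p = 0.996).

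Among cytotoxic granule genes and death ligands 1 of 15 passed. FASLG, the ligand that triggers death through the receptor FAS, was at 0.822, 1.43, 1.59 and 1.10 CPM in the control libraries and at 3.61, 3.23, 3.19 and 2.75 CPM in the androstenone libraries. The groups did not overlap, and the 4 androstenone libraries lay close to each other, unlike for GZMA. On the log2 scale the groups differed by 1.33 (SE 0.27, adjusted p = 0.378, edgeR). The highest TPM of this list belonged to CTSC, a protease that activates granzymes and is also made by myeloid cells, with a log2 fold change of 0.13 (adjusted p = 0.917).

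Among cytokines, chemokines and their receptors 4 of 21 passed, and all were higher after spraying, against 2.04% of all genes upward. CXCL10, an interferon-induced ligand of CXCR3, a chemokine receptor of T cells, was at 72.7, 44.5, 36.3 and 21.5 CPM in the control libraries and at 206.9, 178.7, 99.2 and 87.1 CPM in the androstenone libraries, without overlap. This was a difference of 1.71 in log2 (SE 0.43, adjusted p = 0.393). CCL5, a chemokine made by cytotoxic lymphocytes among others, was at 46.0, 34.4, 36.2 and 29.0 CPM against 112.8, 73.3, 54.7 and 49.7 CPM, again without overlap. Its difference of 1.00 in log2 (SE 0.28, adjusted p = 0.393) lay at the limit of the cutoff. IFNG, the interferon of activated T and NK cells, was at 1.85, 0.753, 0.574 and 0.241 CPM against 3.34, 2.50, 1.43 and 1.71 CPM, with control 1 above androstenone 3 and 4. In control 1, 17 counts equalled 3.49 CPM, so its IFNG value rested on fewer counts and this overlap is uncertain. The fitted log2 difference of IFNG came to 1.61 (SE 0.59, adjusted p = 0.416, edgeR). CCL4, named after its values were seen, was high in androstenone 1 and 2 alone, at 10.2 and 8.62 CPM, against 2.44 to 3.40 CPM in the other 6 libraries (log2 fold change 1.07, adjusted p = 0.441). Over 19 alternatives CXCL10 passed in 19, FASLG in 18, IFNG in 15, CCL5 in 7 and CCL4 in 5. FASLG and CXCL10 were each below an adjusted p of 0.05 in 3 of these (DESeq2, the likelihood ratio test and the exact test), and IFNG, CCL5 and CCL4 in 0. Of the single libraries, control 2, control 3 and androstenone 1 each ended the call for IFNG when left out. Leaving out any of the 4 controls, androstenone 1 or androstenone 2 ended it for CCL4, and leaving out control 2, control 4, androstenone 1 or androstenone 2 ended it for CCL5.

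Among 16 lymphocyte transcription factors and 11 homing and residency genes 0 passed, with median log2 fold changes of 0.0095 and 0.16. KLF2, a transcription factor that keeps homing receptors on resting T cells and is also made by endothelium, was named after its values were seen. It was at 35.7, 68.4, 19.98 and 57.9 CPM in the control libraries and at 14.2, 11.7, 29.2 and 32.9 CPM in the androstenone libraries, with overlapping groups. Its log2 difference of -1.05 (adjusted p = 0.442) narrowly missed the unadjusted cutoff, and it ranged from -1.31 to -0.78 over the alternatives. ETS1 and ITGB7, those of highest TPM, were at 0.018 (adjusted p = 0.990) and 0.089 (adjusted p = 0.936).

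**Figure D3:**
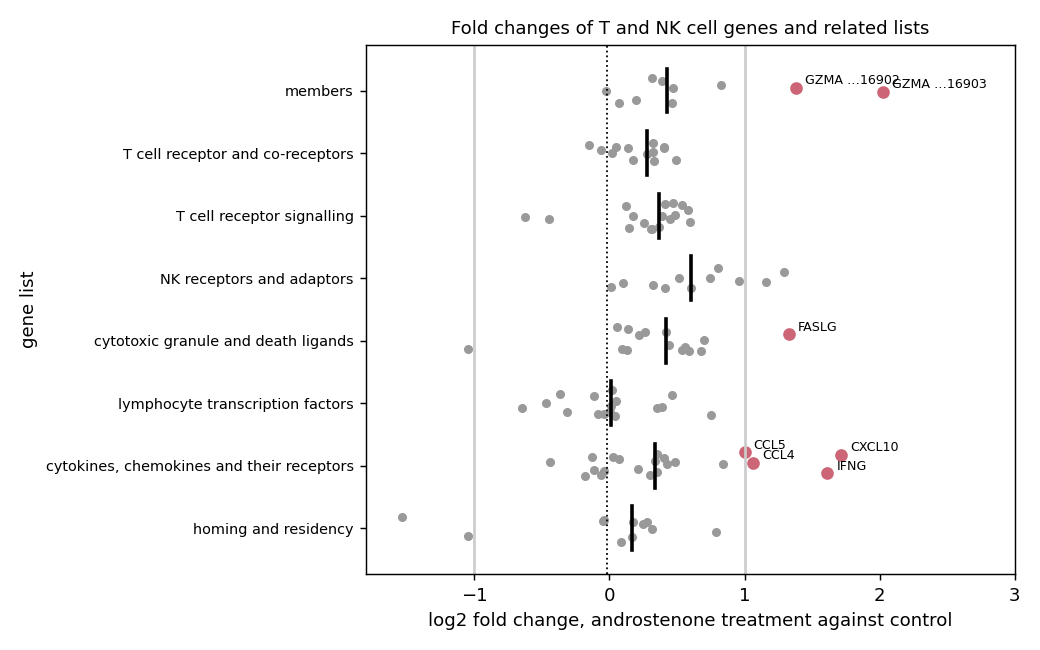
Log2 fold change (androstenone treatment against control) of every tested gene, 1 dot per gene, in the members and 7 related lists, with a black bar at each list's median, a dotted line at the median of all genes (-0.021) and gray lines at the cutoff of 1 and -1. The labelled red dots passed the unadjusted cutoff, and most receptor, signalling and transcription factor genes lie between the gray lines.

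Other cell types were read with lists of their own, at the same unadjusted cutoff and with adjusted p from the same edgeR fit. Of all genes, 2.04% passed this cutoff upward and 4.38% downward. Pan-leukocyte genes gave 0 of 13 past the cutoff, and CORO1A, the most abundant of them, had a log2 fold change of 0.093 (adjusted p = 0.957). Of the B and plasma cell list 1 of 13 passed. TNFRSF17, the plasma cell receptor BCMA, was higher in the androstenone treatment group (log2 fold change 1.19, adjusted p = 0.416), while JCHAIN had the highest TPM (log2 fold change 0.94, adjusted p = 0.548). Macrophage and monocyte genes gave 0 of 12, with C1QC at 0.55 (adjusted p = 0.669), mast cell genes 0 of 4 (KIT at -0.21, adjusted p = 0.814) and endothelial genes 0 of 7 (PECAM1 at -0.046, adjusted p = 0.983). Of 8 neutrophil and marrow genes 4 were higher, namely S100A8, S100A12, CSF3R and AZU1, with log2 fold changes of 2.87, 2.54, 1.15 and 1.47. Their list summed to 530 to 3071 TPM in the control group and 1087 to 1930 TPM in the androstenone treatment group, a sum led by LTF (log2 fold change -1.15, adjusted p = 0.470). Of 7 erythroid genes 1, SLC4A1, was lower (log2 fold change -1.07, adjusted p = 0.437), and HBB was at -0.70 (adjusted p = 0.692). Of 12 cilium genes 1, MCIDAS, was higher (log2 fold change 3.13, adjusted p = 0.416), and FOXJ1 was at 0.82 (adjusted p = 0.606). Of 9 olfactory neuron genes 0 passed (STOML3 at 0.40, adjusted p = 0.811). Of 12 osteoblast and cartilage genes 10 were lower, BGLAP among them (log2 fold change -4.95, adjusted p = 0.416), with control 4 at 3155 CPM and the other 7 libraries at 12.8 to 62.8 CPM. The part of these cell types in the values of the members was not tested.

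Ratios within a library, chosen after the values were seen and given without a test, showed how the members varied against each other. CD8A stood at 1.17, 1.17, 2.71 and 0.960 TPM per TPM of CD4 in control 1 to 4, and at 3.32, 5.52, 1.21 and 1.01 in androstenone 1 to 4. The 3 libraries with the highest ratio, androstenone 2, androstenone 1 and control 3, were also the 3 with the highest cilium sums. CD3E stood at 0.804, 0.418, 0.459 and 0.419 TPM per TPM of the pan-leukocyte gene PTPRC in the control libraries and at 1.10, 0.904, 0.975 and 0.481 in the androstenone libraries. Androstenone 4 lay within the control range and the other 3 androstenone libraries above it. This order holds for PTPRC as the divisor, 1 gene of the pan-leukocyte list, and not for leukocyte transcripts in general. The 13 genes of that list summed to 1167, 1611, 707 and 650 TPM in the control libraries. In the androstenone libraries they summed to 815, 662, 912 and 1695 TPM. CD3D per CD3E varied less than these 2 ratios, at 0.346 to 0.449 in the control group and 0.234 to 0.367 in the androstenone treatment group. Here androstenone 2 lay within the control range and the other 3 androstenone libraries below it.

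**Figure D4:**
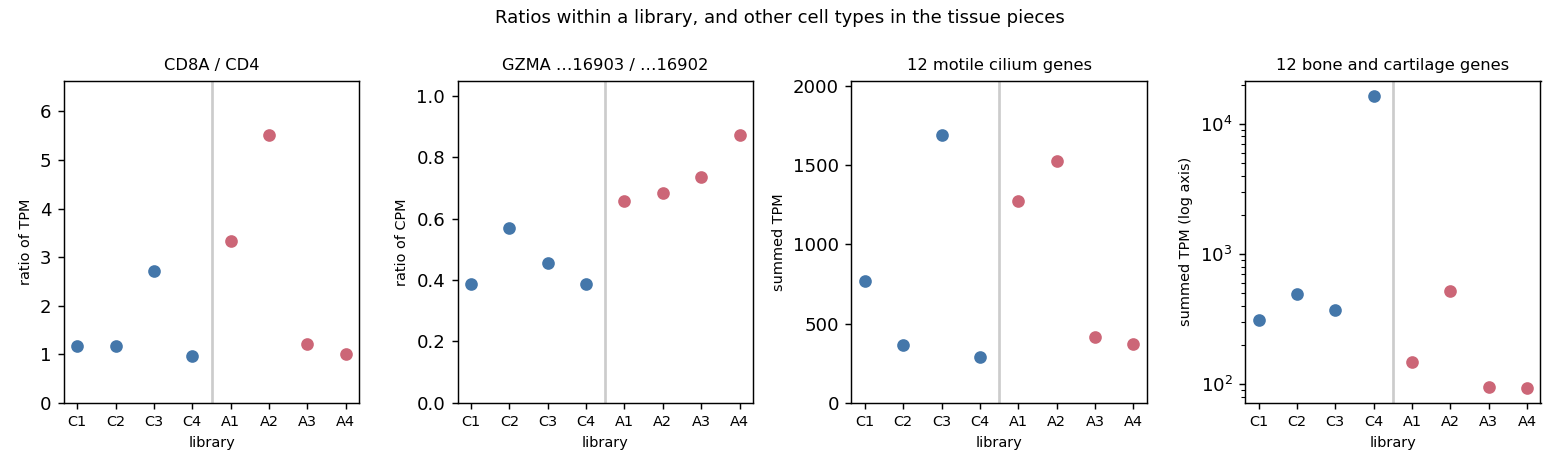
From left to right, the ratio of CD8A to CD4 (TPM), the ratio of the 2 GZMA rows (CPM), and the summed TPM of 12 motile cilium and of 12 bone and cartilage genes (log axis), for each control (C, blue) and androstenone treatment (A, red) library. The CD8A to CD4 ratio is highest in A2 (5.52), A1 and C3, the libraries with the most cilium transcripts, and bone genes reach 16461 TPM in C4.

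Among 15935 other genes with a mean of at least 1 CPM, those whose profile over the 8 libraries was most like the mean profile of the 10 rows were CD52, CD226, SLA2, KLRK1, FICD, TIFAB, TTF2, ABHD6, RAB37 and RHBDF2. Their centered log2 values differed from that profile by a mean of 0.098 (CD52) to 0.13. Since that mean blends unlike patterns, the receptor genes and GZMA were also compared on their own, after the values were seen. Nearest to CD3D, CD3E, CD2 and CD5 together was PVRIG, with a mean difference of 0.067, and the named genes that followed were CD6 (0.11), ITGB7 (0.13), LCK (0.13) and JAKMIP1 (0.14). Nearest to the 2 GZMA rows among named genes were WARS1 (0.17), CELA2A (0.18), ZACN (0.19) and UBD (0.20).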

How the data were processed

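RNA-seq libraries of 8 OE samples were analysed. Per the labels and the study's methods, the authors used fastp 0.23.1 for read cleaning and kallisto 0.48.0 for quantification against Sscrofa11.1 transcripts (Ensembl release 108). The authors deposited an estimated count per gene, not normalized and not always whole, and a TPM value, which corrects for transcript length and depth. The sources used here do not say how transcripts were combined into genes.

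Estimated counts were rounded, and genes with at least 1 count over 8 libraries were kept. Groups were compared with edgeR 4.0.16 (TMM, quasi-likelihood test, condition only, all 8 libraries; R 4.3.3), as the study names edgeR with a cutoff of p below 0.05 and log2 fold change of 1 or more in size. The study does not say which edgeR test it used. Over all genes, 1368 passed with the quasi-likelihood test and 1978 with the likelihood ratio test. Levels are CPM of TMM-scaled totals, or TPM between genes. The standard error is the log2 fold change over the root of the F statistic. Alternatives used DESeq2 1.42.0, limma 3.58.1 (voom, or log2(TPM + 0.1) and log2(TPM + 1)), edgeR's likelihood ratio and exact tests, RLE or library size scaling, other filters, the replicate block and each library left out. Exact permutation tests took log2(CPM + 0.5) over 70 assignments (Python 3.11.15). The tests were checked on simulated counts of independent libraries, which does not cover libraries that share a sow or a tissue make-up. Gene names came from a name table (15527 of 22516 identifiers matched) and positions from RefSeq.

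Members and lists were chosen with earlier results of these data known. Named genes were all members, up to 3 passing genes of smallest p per lymphocyte list, the gene of highest TPM in each list, and the 10 genes of nearest profile. Every pair of libraries differed by more than sampling noise, to very different degrees (chi-square of counts per gene). Counting intervals cover counting error only, as PCR copies are not independent molecules. No sequence is shown, since none was in the sources used here.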

Additional observations from a re-analysis of the deposited data

Results flagged for a closer look

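Among 24 groups of 4 libraries (each member in each group, the library totals and the share of the 10 leading genes), 3 held a library whose gap to its nearest neighbor was a large part of the whole range by Dixon's criterion, where chance gives about 1 in 20. NKG7 in androstenone 2, at 14.2 CPM, lay below the other 3 libraries of its group, at 20.6 to 21.4 CPM. The summed counts of control 1, 4178330, lay below those of the other control libraries. The 10 leading genes took 29.4% of the counts in control 4, against 6.57% to 9.02% in the other control libraries.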

How the results depend on the processing

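Of 190 refits of single members, 169 kept their direction and their side of the cutoff. The log2 fold change of CD3D, -0.023, turned to 0.32 with limma voom, 0.041 and 0.016 with limma on log2(TPM + 0.1) and log2(TPM + 1), and 0.14 with the replicate block, and ranged from -0.28 to 0.34 with 1 library left out. With 1 library left out, CD5 ranged from -0.20 to 0.46 and GZMB from -0.078 to 1.03, so that the direction of these 3 genes is not settled by these data. Over all genes, 1368 passed, against 727 and 321 with limma on the 2 TPM scales, 583 with the replicate block, and 867 (without androstenone 1) to 2414 (without control 3) with 1 library left out. Of the members, 2 passed, against 1 on either TPM scale and 1 with the replicate block, GZMA ENSSSCG00000016903 each time. With 1 library left out, 1 to 3 passed. With limma voom 2 passed, but these were CD8A (log2 fold change 1.08) and GZMA ENSSSCG00000016903. Of the 7 lists, 5 genes passed, against 2 with library size only, 3 with at least 10 counts, 3 with log2(TPM + 1), 3 with the replicate block, and 2 to 8 with 1 library left out. All 5 were higher, but some alternatives gave lower calls. KLF2 was a lower call with RLE scaling, filterByExpr, DESeq2, the likelihood ratio and exact tests, both TPM scales, and without control 3 or androstenone 4. GZMH was a lower call without control 2, and TOX without androstenone 4. Members without overlap numbered 1, against 6.53% of all genes. With 1 library left out they numbered 1 to 4, against 7.74% to 15.9% of all genes. The 4 came without control 1, where 8.98% of all genes did not overlap. Same-numbered libraries of the groups did not all deviate together (correlations over genes of -0.054, -0.59, -0.69 and 0.22). Deviations within a group sum to 0, so these values cannot settle whether the numbers pair the libraries. What a call lost under the block means was not tested. The low total of deposited counts limits control 1 most, where a member rested on as few as 17 counts. List genes at a lower CPM there, such as IFNG, FASLG and NCR1, rested on fewer.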

Other observations

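The ratio of the 2 GZMA rows is given as a description, since it was chosen after its values were seen and rests on how shared reads were split between the copies. The ratio of ENSSSCG00000016903 to ENSSSCG00000016902 in CPM was 0.386, 0.571, 0.456 and 0.386 in control 1 to 4, and 0.659, 0.684, 0.735 and 0.874 in androstenone 1 to 4. Every androstenone value was above every control value. In control 1, however, the ratio rested on 17 and 44 counts, with a 95% exact binomial interval of 0.207 to 0.690 (counting error only), which reaches the values of androstenone 1 and 2. The interval of control 2, 0.501 to 0.650, also overlapped that of androstenone 1, 0.627 to 0.693. As each group came from 2 sows, a difference between sows and one between treatments cannot be told apart.

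GZMH, a granzyme that lies beside GZMB on chromosome 7 (74723800 to 74727396 on Sscrofa11.1, RefSeq), was named after its values were seen. It was at 52.6 CPM in control 3 and at 6.91 to 16.6 CPM in the other 7 libraries. Control 3 was thus the highest library for both GZMB and GZMH, but not for GZMA, PRF1 or NKG7. KLRB1 and KLRG1, lectin-like receptors of NK and T cells that were also named after their values were seen, resembled NCR1. In androstenone 3 and 4, KLRB1 was at 3.54 and 3.61 CPM and KLRG1 at 2.21 and 2.83 CPM, the highest values of both genes. In androstenone 1 and 2 they were at 2.19 and 1.15 CPM and at 0.869 and 0.502 CPM, against 0.586 to 2.88 CPM (KLRB1) and 0.563 to 1.99 CPM (KLRG1) in the controls. The rest of the list did not share this order. Of its 11 genes, 6 were highest in androstenone 4, 3 in androstenone 1 (KLRK1, CD244 and CD226) and 2 in control 4. KLRK1, the receptor NKG2D, was at 32.4 and 25.4 CPM in androstenone 1 and 2 and at 21.1 and 24.8 CPM in androstenone 3 and 4.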
